A study of Mus musculus with 10 samples.

Results

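The cyclin D kinases and their inhibitors were followed in a mouse model of T-ALL, an acute leukemia of immature T cells, in which calcineurin was left intact or its gene deleted. The 10 genes were the CDK inhibitors Cdkn1a, Cdkn1b, Cdkn2a, Cdkn2c and Cdkn2d, the D cyclins Ccnd1, Ccnd2 and Ccnd3, and the kinases Cdk4 and Cdk6. They were taken by name, and all 26 probe sets that the platform annotation gives to 1 of these symbols alone were used, of 45037 tested. A probe set is a group of oligonucleotides on the array that read the same transcript. Ccnd2 had 7 probe sets, Ccnd1, Ccnd3, Cdk4 and Cdk6 had 3 each, Cdkn1a and Cdkn1b had 2 each, and Cdkn2a, Cdkn2c and Cdkn2d had 1 each. Probe sets of 1 gene share its transcripts and are not replicates.

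The leukemias were driven by ICN1, the activated form of NOTCH1, and in both groups carried the ROSCreERT2 transgene and 2 floxed copies of CnB1, which encodes the regulatory subunit of calcineurin (now Ppp3r1). Leukemic secondary recipients received tamoxifen, which deletes CnB1 through the inducible Cre (TAM, 5 arrays), or the corn oil carrier alone (OIL, 5 arrays). Every label, 204, 206, F3.1, F3.2 or F3, occurs in OIL and in TAM, and what the labels stand for is not stated. Marrow leukemic cells, over 50% of the marrow, were flow-sorted by GFP or a similar marker. All TAM samples received tamoxifen and had the Cre activated, so deletion of CnB1, tamoxifen itself and Cre activity cannot be told apart in this design.

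Cells enter S phase when D cyclins, bound to Cdk4 or Cdk6, begin to phosphorylate the retinoblastoma protein and release E2F factors. The INK4 inhibitors (products of Cdkn2a, Cdkn2c and Cdkn2d) bind Cdk4 and Cdk6 themselves, whereas the CIP/KIP inhibitors p21 (Cdkn1a) and p27 (Cdkn1b) act on cyclin and kinase complexes, most strongly those of Cdk2. In T-ALL, Ccnd3 and Cdk6 are known to be needed downstream of NOTCH1, and the Cdkn2a locus is often lost in the human disease.

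Values are log2 expression units, so a difference of 1 is a change by a factor of 2, and levels of different probe sets are not comparable. At 1421786_at the OIL arrays averaged 5.32 ± 0.58 for Ppp3r1 and the TAM arrays 3.26 ± 0.21 (SD over 5 arrays, limma adjusted p = 0.0161), with all 5 TAM arrays below all OIL arrays. Its other probe set, 1433591_at, was 9.80 ± 0.09 and 9.67 ± 0.04 (adjusted p = 0.553), and where these probe sets lie with respect to the floxed exons was not examined. The 7 of 9 listed T cell markers that had a probe set averaged 11.16 to 11.53 in OIL and 11.22 to 11.50 in TAM. Neutrophil and monocyte markers (6 of 7 listed, of which Mpo, Elane and Csf3r lay below the median of all probe sets) averaged 4.70 to 6.38 in OIL and 5.21 to 6.83 in TAM, highest in both F3 arrays. B cell, erythroid, macrophage, megakaryocyte, NK and stromal markers averaged between 4.30 and 5.73 on every array. Each marker was read at its brightest probe set alone. Of all these markers 1 passed the test with the label as a block, the T cell marker Cd2 (-0.999, lower in TAM), and none passed without it. In sorted bulk cells, a change in the mix of cells and a change in RNA per cell cannot be told apart.

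Probe sets of Cdkn1a, Ccnd3 and Cdk6 passed the test in the fit with the label as a block, and the sequences before their start sites are shown because calcineurin acts through NFAT factors and NOTCH1 through RBPJ. Windows from RefSeq (GRCm38.p6) were used for 8 of the 10 genes, and those of Ccnd1 and Ccnd2 were not analysed here. Each window is the 250 bases before an annotated start, on the strand of the gene, which for these 5 windows is the plus strand. Capitals mark GGAAA, the NFAT core, on either strand (TTTCC), and ACATGTC on either strand (GACATGT), letters found in the p53 binding site. The latter were added after the first Cdkn1a window had been seen, and no occurrences overlapped.
Cdkn1a, distal start, chr17:29090729-29090978: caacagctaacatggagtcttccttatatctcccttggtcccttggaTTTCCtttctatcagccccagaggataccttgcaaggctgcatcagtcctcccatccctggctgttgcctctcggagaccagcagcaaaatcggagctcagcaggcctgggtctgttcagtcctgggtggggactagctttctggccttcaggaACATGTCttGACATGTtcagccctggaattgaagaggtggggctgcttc
Cdkn1a, proximal start, chr17:29093519-29093768: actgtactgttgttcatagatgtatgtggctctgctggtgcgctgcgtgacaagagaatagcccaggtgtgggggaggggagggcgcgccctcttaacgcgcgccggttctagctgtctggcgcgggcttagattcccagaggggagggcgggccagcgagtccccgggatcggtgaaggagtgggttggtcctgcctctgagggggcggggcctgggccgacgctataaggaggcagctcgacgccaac
Ccnd3, distal start, chr17:47504801-47505050: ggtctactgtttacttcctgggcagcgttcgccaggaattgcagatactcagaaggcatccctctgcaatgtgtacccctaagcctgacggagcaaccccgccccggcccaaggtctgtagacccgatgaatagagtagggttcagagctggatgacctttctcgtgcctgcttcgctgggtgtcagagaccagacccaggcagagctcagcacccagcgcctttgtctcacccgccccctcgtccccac
Ccnd3, proximal start, chr17:47593217-47593466: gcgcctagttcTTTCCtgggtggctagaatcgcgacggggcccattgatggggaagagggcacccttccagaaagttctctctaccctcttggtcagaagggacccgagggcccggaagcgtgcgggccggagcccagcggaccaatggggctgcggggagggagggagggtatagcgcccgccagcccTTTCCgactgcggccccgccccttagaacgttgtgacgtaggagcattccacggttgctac
Cdk6, chr5:3343643-3343892: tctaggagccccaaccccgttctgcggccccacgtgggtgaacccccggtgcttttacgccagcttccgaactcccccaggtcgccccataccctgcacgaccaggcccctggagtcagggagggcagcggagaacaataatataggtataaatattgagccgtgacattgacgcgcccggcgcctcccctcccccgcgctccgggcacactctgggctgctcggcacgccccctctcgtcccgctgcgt

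The NFAT core occurred once in the distal Cdkn1a window, beginning 203 bases before the start, and 2 times in the proximal Ccnd3 window, 239 and 61 bases before it. It was in 5 of the 12 windows of the 8 genes that had one, against 55.6% of all 32851 windows of that length. The RBPJ core GTGGGAA, on either strand, was in 0 of the 12 and in 5.42% of all windows. The p53 letters stood 49 and 40 bases before the distal Cdkn1a start, in opposite orientations, and in no other of the 12 windows (1.62% of all windows). A match describes letters and does not show binding. The 5 windows held 54% (Cdkn1a, distal), 64.8% (Cdkn1a, proximal), 59.6% (Ccnd3, distal), 64.8% (Ccnd3, proximal) and 66% (Cdk6) G and C, against a median of 52.4% over all windows.

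Across the 26 probe sets, limma called 0 between TAM and OIL without the block, and 7 had a raw p under 0.05. Of all 45037 probe sets it called 0.0733%, and 9.65% had a raw p under 0.05. With the label as a block 6 were called, 3 higher in TAM (both of Cdkn1a and 1 of Ccnd3) and 3 lower (all of Cdk6), against 1.3% of all probe sets. The median difference was 0.15 over the 26 and -0.02 over all, and 18 of the 26 were higher in TAM (69.2%, against 42.0% of all probe sets). Of these 18, 7 were the uncalled probe sets of Ccnd2. The background includes dim probe sets, while 0 of the 26 lay below the 30th percentile, so the shares are not matched for level. The plot of all 26 differences shows wide intervals for Ccnd1, Ccnd2 and Cdkn2a, whose values varied between labels. Cdkn1b at 1419497_at (-0.86 to 1.06) and Ccnd3 at 1438805_at (-1.11 to 0.50) had wide ones too. The latter was not called between labels (F test, adjusted p = 0.394).

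**Figure D1:**
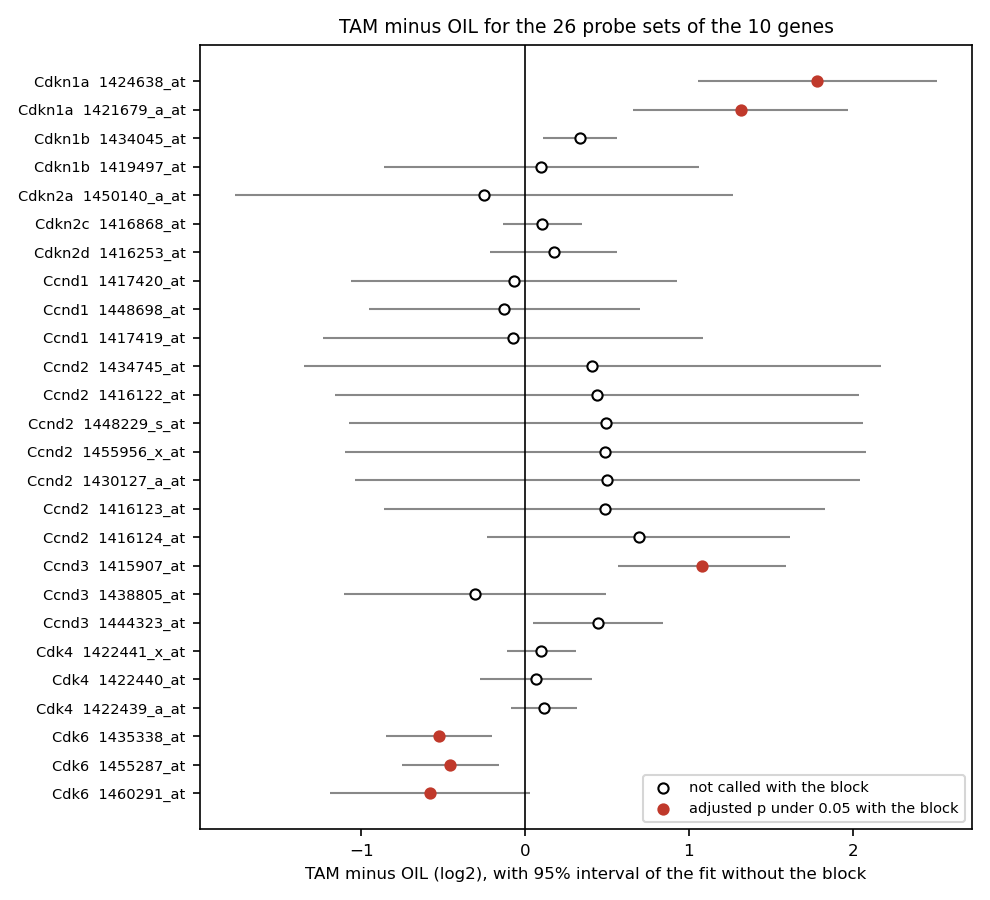
TAM minus OIL on the log2 scale for each of the 26 probe sets (points), with the 95% interval of the limma fit without the block (lines, n = 5 per group); red points passed an adjusted p under 0.05 with the label as a block. The red points are the 2 probe sets of Cdkn1a at 1.78 and 1.32, 1 of Ccnd3 at 1.08, and the 3 of Cdk6 between -0.58 and -0.46.

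Cdkn1a, which encodes the CDK inhibitor p21, rose with the block at both of its probe sets. The first, 1424638_at, read 6.34 (204), 7.67 (206), 6.40 (F3.1), 6.51 (F3.2) and 6.26 (F3) in the OIL arrays. In TAM it read 8.17, 9.27, 7.69, 8.78 and 8.20 for the same labels. Every TAM array was thus above every OIL array, although only just, with OIL 206 at 7.67 next to TAM F3.1 at 7.69. It was the only 1 of the 26 whose groups did not overlap, which held for 2.06% of all probe sets. The mean rose from 6.64 ± 0.59 to 8.42 ± 0.61 (SD, n = 5), by 1.78 ± 0.33 (SE) or 3.45-fold (limma adjusted p = 0.104 without the block and 0.00545 with it).

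The other Cdkn1a probe set, 1421679_a_at, went from 6.11 ± 0.56 to 7.43 ± 0.51, a difference of 1.32 or 2.49-fold (adjusted p = 0.164 and 0.011 with the block). Within labels 1424638_at differed by 1.83 in 204, 1.59 in 206, 1.29 in F3.1, 2.28 in F3.2 and 1.94 in F3. The mean difference was 1.71 over labels 204 and 206 and 1.84 over the F3 labels. With the block the call of 1424638_at held whichever label was left out (adjusted p between 0.00272 and 0.0236). Without the block it passed only in the fit that left out OIL 206, its highest OIL array (2.04, limma adjusted p = 0.0385). The fits that left out any other single array did not pass (adjusted p up to 0.296). The other, 1421679_a_at, lost its call with the block without label 204 (1.25), where the adjusted p was just above 0.05.

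Label 206 stood above the other labels for Cdkn1a in both groups. Averaged over its OIL and TAM array, 1424638_at was 8.47 in 206 and 7.05 to 7.64 in the other labels (F test over 5 labels, adjusted p = 0.0192). Without label 206 this no longer passed (adjusted p = 0.336). The other probe set, 1421679_a_at, was also highest in 206, at 7.62 against 6.44 to 6.72, and was not called between labels (adjusted p = 0.0586).

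Ccnd3, the D cyclin needed for expansion of immature T cells, rose with the block at 1415907_at. It read 9.32 (204), 9.33 (206), 8.80 (F3.1), 8.65 (F3.2) and 10.04 (F3) in OIL, and 10.28, 10.30, 10.02, 10.31 and 10.64 in TAM. The groups overlapped through a single array, OIL F3 at 10.04, which exceeded TAM F3.1 at 10.02. The mean rose from 9.23 ± 0.55 to 10.31 ± 0.22 (SD, n = 5), a difference of 1.08 ± 0.23 (SE) or 2.11-fold (limma adjusted p = 0.152 without the block and 0.0165 with it).

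The OIL F3 array also had the highest neutrophil and monocyte marker average of the OIL arrays, 6.38, and the part of these cells in its level was not tested. Without label F3 the blocked difference was 1.20 (adjusted p = 0.0251), and without OIL F3 the unblocked one was 1.28 (adjusted p = 0.0393). OIL F3 was the highest OIL array, and unblocked fits that left out any other single array did not pass (limma adjusted p up to 0.388). With the block the call was lost without label 204 (1.11, adjusted p = 0.0588) or F3.1 (1.04, adjusted p = 0.0798).

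The other probe sets of Ccnd3 were not called. At 1444323_at, OIL was 6.32 ± 0.19 and TAM 6.77 ± 0.40, with a difference of 0.44 that was positive in 5 of 5 pairs (adjusted p = 0.0769 with the block). At 1438805_at the difference was -0.30 (95% interval -1.11 to 0.50), and the pairs went from -1.54 in F3.1 to 0.75 in F3.2. Which Ccnd3 transcripts each probe set reads was not determined here. The call for Ccnd3 rests on 1 of its 3 probe sets.

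Cdk6, the cyclin D kinase that prevails in immature T cells, fell at all 3 of its probe sets in the fit with the block. The first, 1435338_at, read 12.08 (204), 11.38 (206), 11.62 (F3.1), 11.68 (F3.2) and 11.48 (F3) in OIL, and 11.52, 11.00, 11.13, 11.10 and 10.89 in TAM. Each TAM array was below the OIL array of its label, although TAM 204 at 11.52 was above OIL 206 and OIL F3. The mean fell from 11.65 ± 0.27 to 11.13 ± 0.24, by 0.52 on the log2 scale, or 1.44-fold (SE 0.15, limma adjusted p = 0.271 without the block and 0.013 with it).

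Each of the 5 pairs was lower in TAM at this probe set, from -0.39 in 206 to -0.59 in F3. At 1455287_at Cdk6 differed by -0.46 (from 10.75 ± 0.23 to 10.29 ± 0.22, adjusted p = 0.303 and 0.017 with the block), with pairs between -0.50 and -0.36. At 1460291_at it differed by -0.58 (from 6.96 ± 0.47 to 6.38 ± 0.52, adjusted p = 0.542 and 0.0139), with pairs between -0.78 and -0.44. With the block, calls of all 3 were lost without label 204 (adjusted p between 0.0510 and 0.0623) or F3 (between 0.0540 and 0.0731), while the differences were between -0.60 and -0.44. Without F3.1, 1435338_at and 1455287_at were lost (0.0632 and 0.0798), and without 206, 1460291_at (0.0523).

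**Figure D2:**
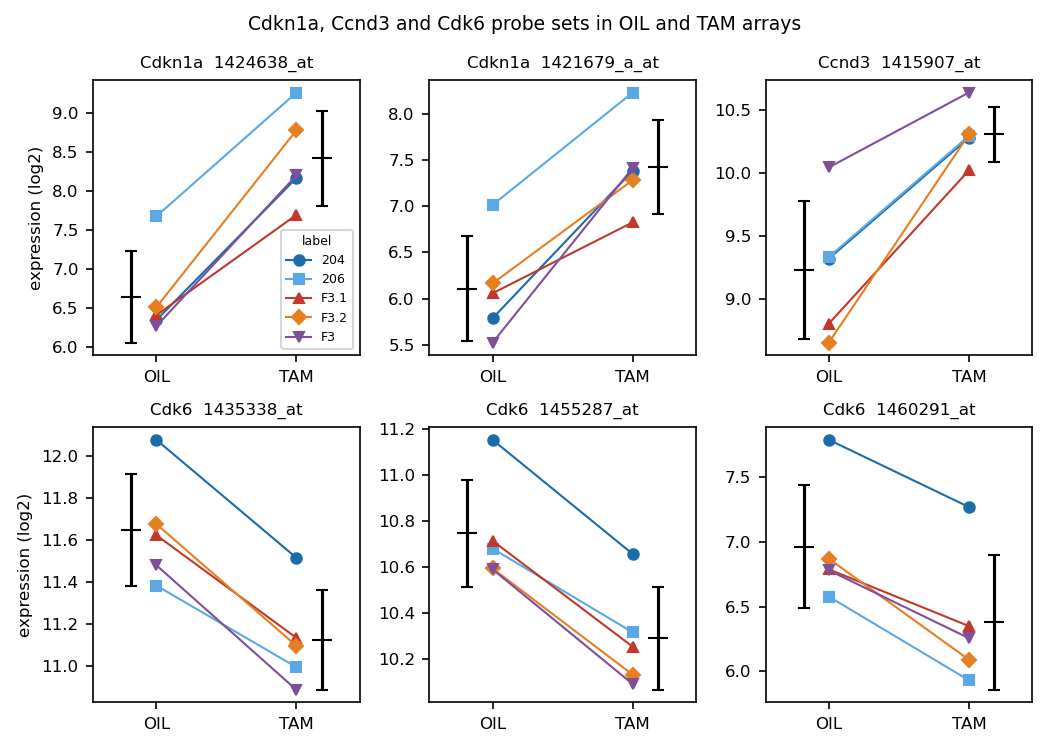
Log2 expression of the 2 Cdkn1a probe sets, the called Ccnd3 probe set and the 3 Cdk6 probe sets, with a line from the OIL to the TAM array of each label and the group mean ± SD beside it (n = 5); axes do not start at 0. All 5 lines rise for Cdkn1a and Ccnd3 and fall for Cdk6, and label 206 is highest for Cdkn1a while 204 is highest for Cdk6.

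Label 204 was also the highest for Cdk6 in both groups. At 1460291_at its 2 arrays averaged 7.53, against 6.25 to 6.57 in the other labels (F test, adjusted p = 0.00228). The labels differed at the other probe sets too (adjusted p = 0.0271 and 0.0319). Without label 204 none of the 3 passed (adjusted p between 0.320 and 0.518).

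Cdk4, the other cyclin D kinase, gave no call in either fit. Its 3 probe sets differed by 0.07 to 0.12, with 95% intervals within -0.27 and 0.41, and 4 of 5 pairs were higher in TAM at each. At 1422441_x_at Cdk4 was 10.97 ± 0.13 in OIL and 11.07 ± 0.16 in TAM (limma adjusted p = 0.789, and 0.486 with the block). The pair that went the other way was F3.2 at all 3 probe sets.

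Among the inhibitors other than Cdkn1a none was called in either fit. Cdkn1b, which encodes p27, was 9.16 ± 0.19 in OIL and 9.49 ± 0.13 in TAM at 1434045_at. The difference of 0.33 was positive in 5 of 5 pairs (95% interval 0.11 to 0.56, limma adjusted p = 0.326, and 0.0866 with the block). Its other probe set, 1419497_at, differed by 0.10 (95% interval -0.86 to 1.06 without the block, SE 0.12 with it) and separated the labels instead. It read 7.03 and 7.21 in the OIL and TAM arrays of F3, 6.09 and 6.71 in 204, 6.31 and 6.36 in 206, 5.63 and 5.51 in F3.1, and 5.24 and 5.01 in F3.2 (F test, adjusted p = 0.00309).

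The INK4 genes Cdkn2c, encoding p18, and Cdkn2d, encoding p19INK4d, were not called either. For Cdkn2c the OIL arrays averaged 10.57 ± 0.23 and the TAM arrays 10.67 ± 0.11, which differ by 0.10 (95% interval -0.14 to 0.34). Cdkn2d was 9.22 ± 0.33 and 9.40 ± 0.29, a difference of 0.18 (95% interval -0.21 to 0.56) that was positive in 5 of 5 pairs (adjusted p = 0.244 with the block). Cdkn2d was highest in label F3, at 9.74 in OIL and 9.88 in TAM, against 8.87 to 9.38 elsewhere (F test, adjusted p = 0.0168). That call was lost without label F3 (adjusted p = 0.434) or 206 (0.0579).

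Cdkn2a, the locus of both p16INK4a and p19ARF, was high in a single label. It read 6.42 and 6.62 in the OIL and TAM arrays of 206, and 3.19 to 4.46 on the other 8 arrays (F test, adjusted p = 0.000402). The difference between treatments was -0.25 (95% interval -1.77 to 1.27 without the block, SE 0.12 with it). Cdkn2a was lower in TAM in 4 of 5 pairs, all from the labels where it was dim, and higher by 0.20 in 206. The mean of Cdkn2a over all arrays, which label 206 raises, lay at the 36.7th percentile of all probe sets. The probe set was not resolved here into transcripts of p16INK4a and p19ARF. Label 206 is the same in which Cdkn1a was highest and Ccnd2 lowest.

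Between labels, the F test called 16 of 26 probe sets, in 7 of the 10 genes, against 8.15% of all probe sets. Without label 206 it fell to 7 of 26, which left calls in Ccnd1, Cdk6, Cdkn1b and Cdkn2a and none in Ccnd2, Cdkn1a or Cdkn2d. Labels are represented by 1 OIL and 1 TAM array each.

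Among the D cyclins, Ccnd1, a cyclin that normal T cells hardly express, was high in 204 and 206 and lower in all F3 labels. At 1417419_at it read 8.64 and 8.77 in OIL and 8.42 and 8.48 in TAM for 204 and 206. The 6 arrays of the F3 labels lay between 6.73 and 6.90. That is 8.58 ± 0.16 (SD, n = 4) against 6.84 ± 0.06 (SD, n = 6), a difference of -1.74 or 3.34-fold (limma adjusted p = 2.69e-06 for F3 against 204 and 206). That fit counts the OIL and TAM arrays of a label as separate samples, although they deviate together, so its p-values are too small. With each label's arrays averaged, so that 2 labels were compared with 3, 1417419_at still passed (adjusted p = 0.00297).

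The other Ccnd1 probe sets gave -1.37 and -1.08 for the same contrast (adjusted p = 0.00388 and 0.0144). They were lowest in label F3, at 7.37 to 7.40 and 7.20 to 7.24, and intermediate in F3.1 and F3.2, between 7.80 and 8.32. The contrast called 6 of 26 probe sets, against 4.49% of all: 3 of Ccnd1 and 1 of Cdk4 lower in F3, and 1 each of Ccnd2 and Ccnd3 higher. It called 2 without OIL 204 or OIL 206, 3 without OIL F3.1, OIL F3.2 or TAM 206, all of them Ccnd1, and 10 without TAM 204. With 1 mean per label 1 of the 26 was called, Ccnd1 at 1417419_at, against 0.657% of all probe sets, and the other 5 had adjusted p-values between 0.0765 and 0.213. The Cdk4 one was 1422440_at (-0.41, adjusted p = 0.0396) and the Ccnd3 one 1444323_at (0.48, adjusted p = 0.0379). With tamoxifen Ccnd1 did not pass at any probe set in either fit (-0.13 to -0.07). Its 95% intervals without the block lay within -1.24 and 1.09, and its SE with the block was 0.08 to 0.12. The sign of the Ccnd1 difference was reversed in fits that left out single arrays.

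Ccnd2, the D cyclin induced by growth and cytokine signals, was lowest in label 206 and high in the F3 labels. At 1434745_at it read 6.52 in OIL and 6.38 in TAM for label 206, against 9.31 to 10.55 in the 6 arrays of the F3 labels. Label 204 lay between, at 7.79 in OIL and 9.15 in TAM. The F3 labels exceeded 204 and 206 by 2.17 (adjusted p = 0.0339, and 0.213 with 1 mean per label), and the F test over labels gave an adjusted p of 0.00617. Without label 206 that F test no longer passed (adjusted p = 0.183).

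Ccnd2 differed between treatments unevenly over the labels. In label 204 it was higher in TAM by 1.33 to 1.44 over the 7 probe sets, and in F3.1 by 1.13 to 1.44. In labels 206, F3.2 and F3 the same probe sets differed by -0.41 to 0.41. Over all labels the 7 differences were 0.41 to 0.69, none called in either fit (limma adjusted p between 0.641 and 0.909, and between 0.162 and 0.439 with the block). Since each label has 1 array per treatment, a difference between labels in the response to tamoxifen was not tested. The direction of 1434745_at also turned without OIL 206 (-0.10).

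**Figure D3:**
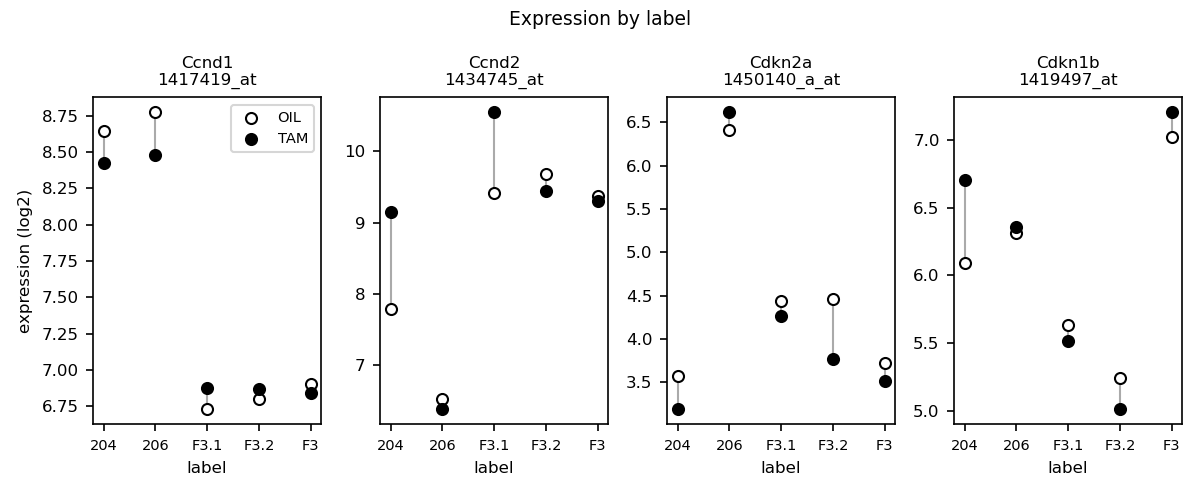
Log2 expression of Ccnd1 (1417419_at), Ccnd2 (1434745_at), Cdkn2a and Cdkn1b (1419497_at) by label. Open circles are OIL and filled circles TAM, 1 array each, joined by a line, and axes do not start at 0. For each gene the probe set with the lowest adjusted p between labels was drawn. At 1417420_at and 1448698_at, which are not drawn, Ccnd1 ranged over the F3 labels from 7.37 to 8.32 and from 7.20 to 8.04. Ccnd1 separates 204 and 206 (8.42 to 8.77) from the F3 labels (6.73 to 6.90), Ccnd2 and Cdkn2a set 206 apart in opposite directions, and the Ccnd2 gap between treatments is wide in 204 and F3.1.

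A response that differed between the label families was not detected. The interaction of treatment with family (204 and 206 against F3 labels) was called for 0 of 26 probe sets and for 0% of all 45037 (limma, 1160 with a raw p under 0.05, among them 1 of the 26). The TAM minus OIL difference in the F3 labels less that in 204 and 206 was 0.13 ± 0.63 (SE) for Cdkn1a at 1424638_at and -0.15 ± 0.54 at 1421679_a_at. For Ccnd3 at 1415907_at it was 0.19 ± 0.51, and for Cdk6 at 1435338_at -0.08 ± 0.30. Each standard error exceeded the estimate beside it, but came from a fit without the labels and so includes the spread between them. With the labels in the model the interaction was likewise called for 0 of all probe sets.

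The rest of the G1 machinery was read through 5 lists, in which 78 of 84 genes had a probe set of their own and 169 probe sets were tested. Limma called 0 of the 169 without the block (32 with a raw p under 0.05) and 7 with it, 5 higher and 2 lower in TAM, or 4.14% against 1.3% of all probe sets. The other CDK inhibitors and the cyclin E and A kinases, whose complexes follow those of cyclin D, had 0 of 24 called in either fit (3 with a raw p under 0.05 when the block is left out), with differences from -0.34 to 0.46 and a median of 0.04.

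Among 29 probe sets of RB and E2F genes, 1 rose and 2 fell with the block. Rb1, the retinoblastoma protein that the cyclin D kinases inactivate, went from 8.50 ± 0.23 to 8.92 ± 0.18 at 1417850_at, a difference of 0.42 (limma adjusted p = 0.3 without the block and 0.0356 with it). Its other probe set differed by 0.13. Tfdp2, a DNA-binding partner of the E2F factors, fell by 0.68 at 1435344_at and by 0.62 at 1437174_at (adjusted p = 0.0498 and 0.0492 with the block, 0.231 and 0.201 without). Its 2 other probe sets differed by -0.48 and -0.03. The list's median difference was 0.06.

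Of 51 probe sets for genes that control synthesis or turnover of the CDK inhibitors and D cyclins, 3 rose with the block and 0 fell. All 3 belong to Foxo1, a transcription factor that acts on CDK inhibitor genes. They rose by 0.79, 0.80 and 0.72 in 5 of 5 pairs (limma adjusted p = 0.00956, 0.00608 and 0.0152 with the block, 0.263, 0.206 and 0.317 without), while the remaining Foxo1 probe set, 1456529_at, was not called (-0.07). Klf4, which also acts on Cdkn1a, differed by -1.28 and -0.92 and did not pass (adjusted p = 0.0958 and 0.0856 with the block). It was lower in TAM in 5 of 5 pairs at both probe sets, opposite to Foxo1 and Cdkn1a. A part of Foxo1 or Klf4 in the Cdkn1a level was not tested.

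The other p53 targets, listed because Cdkn1a is the classic target of p53, had 0 of 23 probe sets called in either fit (2 with a raw p under 0.05 when the block is left out). Their differences ran from -0.55 to 0.36 with a median of 0.02. S and M phase transcripts had 1 of 42 called with the block, Tyms, thymidylate synthase, at 1438690_at (0.64, adjusted p = 0.0341, and 0.151 without), whose other probe sets differed by -0.19 to 0.26. Of these 42 probe sets 31 were higher in TAM, with a median difference of 0.08. In each of the 5 lists the share higher in TAM, from 60.8% to 73.8%, was above the 42.0% of all probe sets. That background includes dim probe sets and was not matched for level, so the shares are not read as a trait of these lists.

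**Figure D4:**
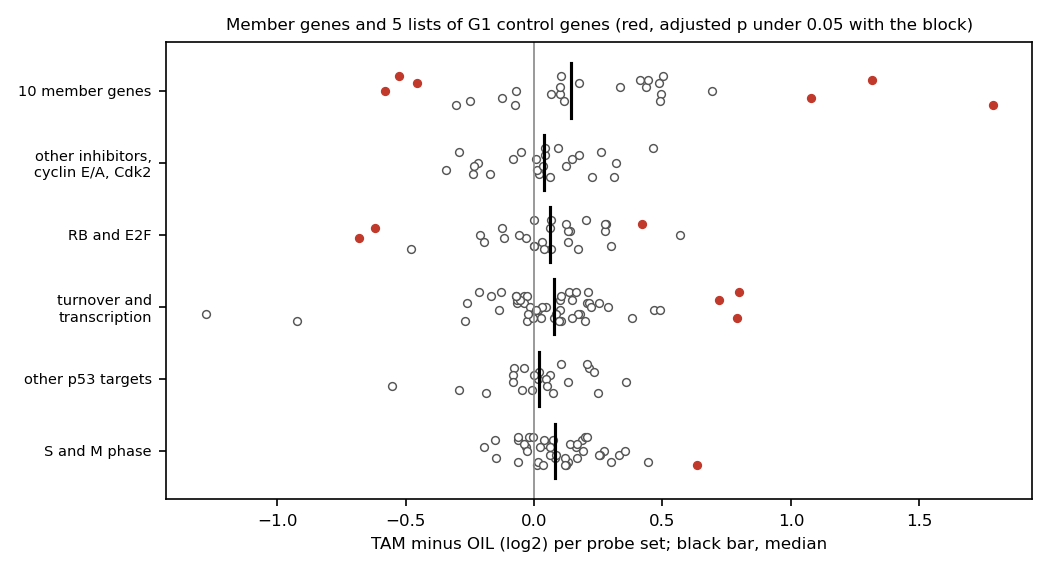
TAM minus OIL on the log2 scale for each probe set of the 10 genes and of the 5 lists (points), with the median of each row as a black bar; red points passed an adjusted p under 0.05 with the label as a block. The medians lie between 0.02 and 0.15. The 2 Cdkn1a probe sets (1.32 and 1.78) and 1 of Ccnd3 (1.08) lie above the highest of the lists, 0.80.

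Likeness to Cdkn1a at 1424638_at and to Ccnd3 was sought over the 10 arrays among probe sets with a single symbol. Predicted or clone-named genes and the gene itself were left out, and each gene's closest probe set was kept. Distance was the mean absolute difference between centred log2 profiles. Closest to Cdkn1a were Bcl6, Pmepa1, Erbb3 and Cblb, at distances of 0.43, 0.46, 0.49 and 0.49. These genes differed between TAM and OIL by 1.12, 0.97, 1.79 and 0.82 (limma adjusted p with the block of 0.0696, 0.0250, 0.0211 and 0.0526, without it between 0.123 and 0.292). Closest to Ccnd3 at 1415907_at were Kdm6b, Zfp36, Nabp1 and Rbmx, at distances of 0.17 to 0.19, with differences of 0.90, 0.92, 0.87 and 0.76 that were not called (adjusted p with the block between 0.0513 and 0.0714). These 4 had their lowest OIL values in F3.2 and their highest in F3, as Ccnd3 had. Likeness was measured on the same 10 arrays, so it carries the treatment and the labels together.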

How the data were processed

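The deposited values are log2 expression values from 10 arrays, which the authors computed by RMA (the submitters' processing notes name it without version or settings). This method subtracts background, brings all arrays to the same distribution and summarises the oligonucleotides of each probe set, so a shift common to all transcripts is removed before deposit. The 64 control probe sets were left out of all tests, which left 45037. Gene names came from the array's annotation table, where 34945 of those tested had a single symbol, and 34754 of these matched a RefSeq gene by Entrez ID. Every probe set was tested on its own without a filter on dim values.

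TAM was compared with OIL in limma 3.58.1 (lmFit and eBayes, under R 4.3.3 with the package data.table at version 1.17.8) over all 45037 probe sets, with Benjamini-Hochberg adjustment over all of them and calls at an adjusted p under 0.05. The alternative with the replicate label as a block left 4 residual degrees of freedom against 8. Labels F3.1 and F3.2 were formed by dropping a final number that differs between the groups. Same-label arrays deviated together from their group means (r over probe sets from 0.26 in F3.2 to 0.75 in F3), all above 0.1. The block, which treats the labels as pairs, was an alternative named in the design, while the main fit had no block. Labels were compared by limma's moderated F test with treatment in the model. A contrast of labels 204 and 206 against the F3 labels and its interaction with treatment were also fitted. Every probe set of the 10 genes was named, with Ppp3r1, called genes of 5 lists and the 4 genes most alike to Cdkn1a and to Ccnd3. Other alternatives were a 30% filter on dim probe sets, median centring, eBayes with trend and robust, leaving out arrays or labels, averaging OIL F3.1 with OIL F3.2, and, added after seeing the data, 1 mean per label for the F3 contrast. The scripts were tested on simulated data. The 10 genes, the lists and the tests were chosen with earlier results of these data known. Array number, 5 per group, limits the precision, and because the labels name no separate mice, the p-values cover the spread among these arrays alone, which may be technical.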

Additional observations from a re-analysis of the deposited data

Results flagged for a closer look

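In 4 of the 52 groups of 5 arrays examined, 26 probe sets in OIL and in TAM, 1 array lay far from the others by Dixon's ratio, and chance alone flags about 1 group in 20. Cdkn1a at 1424638_at was 7.67 in OIL 206, against at most 6.51 in the other OIL arrays. Ccnd2 at 1448229_s_at was 5.91 in TAM 206, against at least 8.64 in the other TAM arrays. Cdk6 was 11.15 in OIL 204 at 1455287_at, against at most 10.71 in the other OIL arrays, and 7.79 at 1460291_at, against at most 6.87. Each of these labels deviated in the same direction in its other array, TAM 206 at 9.27 for Cdkn1a, OIL 206 at 6.09 for Ccnd2, and TAM 204 at 10.66 and 7.27 for Cdk6.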

How the results depend on the processing

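With the replicate block 6 probe sets of the 10 genes were called, and 1, 5, 3, 6 and 3 when labels 204, 206, F3.1, F3.2 and F3 were left out of that fit. Without the block, leaving out single arrays gave 0 to 1 calls, and the filter, centring, variance model and averaged OIL F3.1 and F3.2 gave 0. The block gave 3 calls for RB and E2F, 3 for turnover and transcription and 1 for S and M phase. Leaving out a label gave 7 to 20 calls between labels, and leaving out an array 2 to 10 for F3 against 204 and 206, the fewest without OIL 204 or OIL 206. Averaging the OIL and TAM arrays of a label, chosen after seeing the data, left 1 of the 6 calls for F3 against 204 and 206, since each label then counts once. Directions reversed only for uncalled differences. Leaving out single arrays, Ccnd1 ranged from -0.32 to 0.22 (1417420_at), -0.37 to 0.10 (1448698_at) and -0.32 to 0.23 (1417419_at), Cdkn2a from -0.84 to 0.22, Ccnd2 from -0.10 to 1.06 (1434745_at) and -0.031 to 1.04 (1416122_at), Ccnd3 at 1438805_at from -0.55 to 0.019, Cdk4 at 1422440_at from -0.012 to 0.19 and Cdkn1b at 1419497_at from -0.16 to 0.39. Cdkn1b was -0.057 with OIL F3.1 and F3.2 averaged and -0.030 with the block without 204, Ccnd1 (1417420_at) 0.062 with the block without 206, and Ccnd3 (1438805_at) 0.0038 with the block without F3.1. For F3 against 204 and 206, uncalled too, Ccnd3 ranged from -0.25 to 0.063 (1415907_at) and -0.022 to 0.49 (1438805_at). The cause was not tested.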
